A study of Homo sapiens with 15 samples.

Results

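The genes of mitosis and the spindle were examined in Caco-2 cells, a human colon carcinoma line of epithelial origin that was used here before differentiation. The 52 genes were taken from a list of mitotic entry, spindle, kinetochore, condensin and cytokinesis genes, out of 19775 genes named on the array. Each gene was read from the probe set with its highest mean level over the 15 arrays, and all values are log2 expression levels, or differences between them where said.

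Cells were given 24 h of treatment in serum-free medium, and the RNA of each treatment was hybridised to a single Affymetrix array. On 12 arrays the medium held 10% by volume of cell-free fluid from a colon simulator, in which gut bacteria had fermented polydextrose for 48 h at 0%, 1% or 2%. Polydextrose is a glucose polymer that the small intestine digests poorly. The simulator passes its contents through 4 linked vessels, which stand for the ascending (1), transverse (2) and descending colon (3) and for the sigmoid colon and rectum (4), so that each concentration had 4 arrays. The remaining 3 arrays were 5 mM butyrate, a short-chain fatty acid from fibre fermentation that inhibits histone deacetylases, 100 mM NaCl and medium alone. The fluid with 0% polydextrose was itself a fermented fluid, so all 12 fluid arrays share whatever the simulator's contents carry. The 4 fluids of a concentration came from linked vessels of the same simulation and no repeat is listed. Simulation and concentration cannot be told apart, and p-values measure only the spread among these 12 arrays, whose number limits the precision.

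As background, most of these genes are transcribed in a wave late in the cell cycle, in G2 and mitosis, and are low in resting cells. Cyclin B with CDK1 and the kinases PLK1 and AURKA start mitosis, kinesins and microtubule-binding proteins build the spindle, and kinetochores tie the chromosomes to it. The spindle checkpoint holds back the anaphase-promoting complex until all chromosomes are attached, condensin compacts the chromosomes, and the cytokinesis proteins divide the cell. Their promoters often hold a cell cycle genes homology region (CHR), through which the MuvB core binds in repressing DREAM complexes and in activating complexes with MYBL2 and FOXM1.

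The arrays resembled each other in overall signal, with 42.27% to 44.1% of genes at log2 5 or more. The epithelial markers EPCAM, CDH1, KRT8, KRT18 and KRT19 read 12.68 to 14.04 on every array, while the enterocyte marker VIL1 (2.05 to 2.78) and the intestinal factor CDX2 (3.44 to 4.95) lay under log2 5 on all 15. Of 8 leukocyte and endothelial markers 6 could be read, and they reached at most 3.70. Of 5 fibroblast markers 4 stayed at 2.67 or less, but the collagen gene COL1A1 read 8.13 with butyrate and 3.29 with NaCl, against 1.37 in medium. COL1A1 lay at 6.35 to 6.86 with 0% fluid, 5.26 to 7.29 with 1% and 6.57 to 8.26 with 2%. The log2 of the summed level of the 5 fibroblast markers was 8.22 with butyrate, 4.71 with NaCl and 4.25 in medium, and ran from 6.67 to 7.06 with 0% fluid, from 5.81 to 7.43 with 1% and from 6.80 to 8.34 with 2%. RNA integrity was gauged by how far the 3′ probe set of ACTB read above its 5′ one on the log2 scale, and this difference was highest in vessel 1 at each concentration. It was 0.726 in vessel 1 and 0.582 to 0.636 in the other vessels at 0%, 0.924 and 0.366 to 0.534 at 1%, and 0.620 and 0.547 to 0.551 at 2%. With butyrate it was 0.585 and with NaCl 0.641, against 0.951 in medium. The part of other cell types and of RNA integrity in the results below was not tested.

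The 52 genes as a group read lower at each step of polydextrose and lowest with butyrate. Their median level in vessels 1 to 4 was 9.64, 9.01, 9.16 and 9.06 with 0% fluid, 9.48, 8.42, 8.44 and 8.50 with 1% fluid, and 9.12, 7.70, 7.76 and 8.06 with 2% fluid. It was 7.51 with butyrate and 9.17 with NaCl, against 9.80 in medium. Vessel 1 thus stood above the other vessels at each concentration, and the 3 other arrays of 2% came nearest to the butyrate array. In RNA from a whole culture, fewer cells in the phase that makes these transcripts and less RNA per cell cannot be told apart. On all 15 arrays 44 genes reached log2 5. INCENP, the scaffold of the chromosomal passenger complex, read 2.41 to 3.46 and was under it on all 15, and the kinesin KIF15 reached it on 3.

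**Figure D1:**
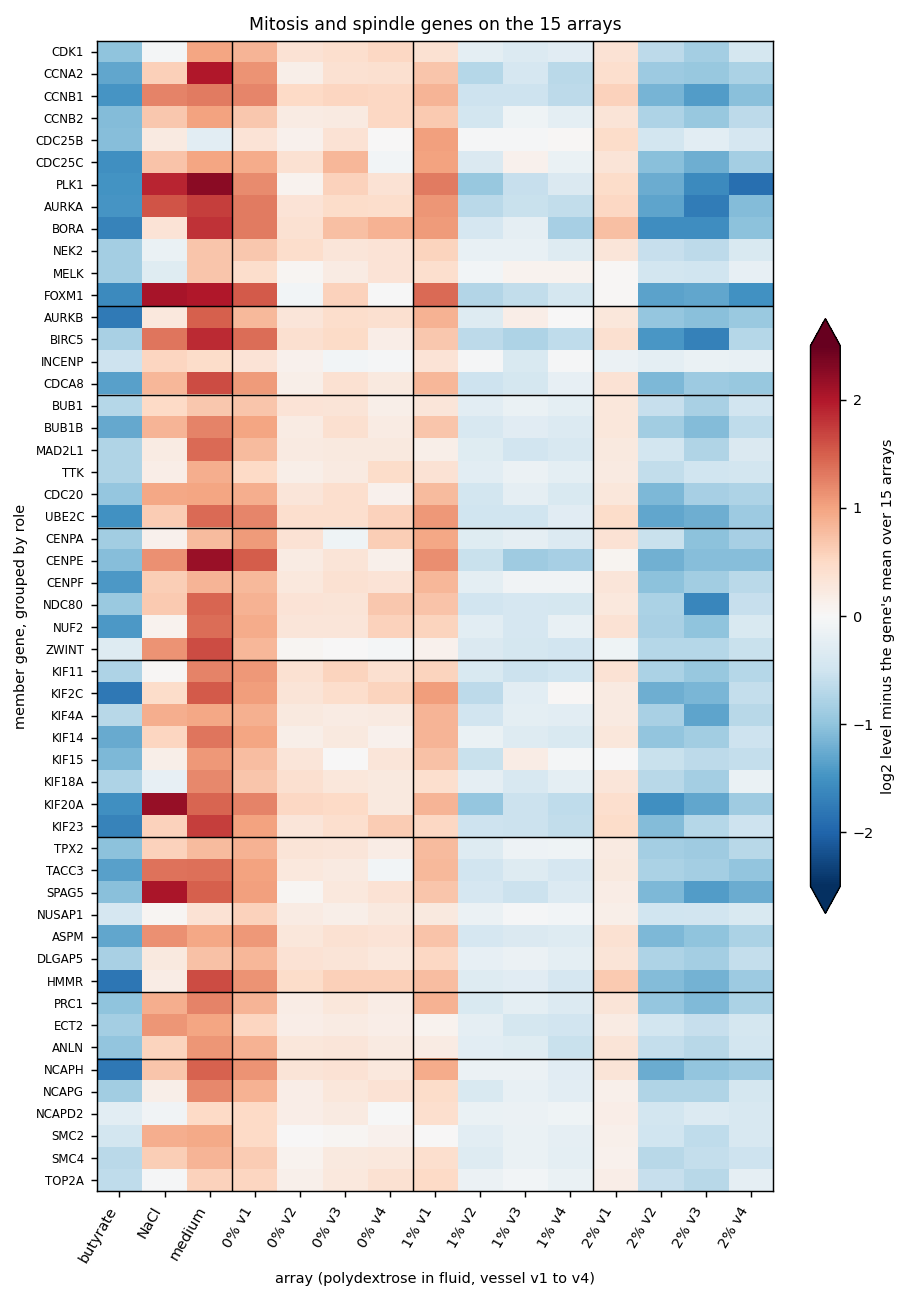
Log2 level of each of the 52 genes minus that gene's mean over the 15 arrays, as colour (blue lower, red higher). Columns are the butyrate, NaCl and medium arrays and then the fluid arrays by polydextrose concentration and vessel (v1 to v4), and horizontal lines part the roles. The butyrate column and the 2% columns of vessels 2 to 4 are blue for nearly all genes, while medium and vessel 1 at 0% and 1% are red for most genes.

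**Figure D2:**
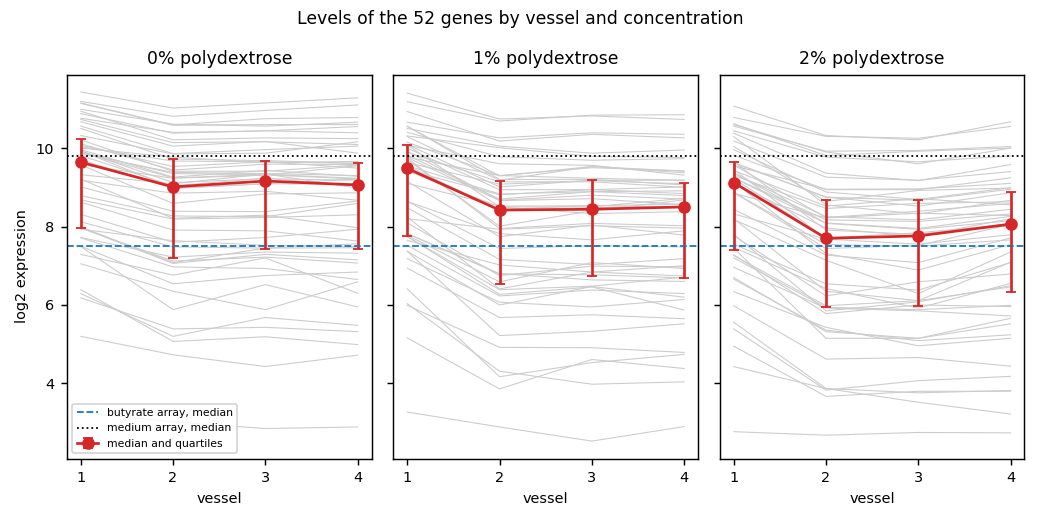
Log2 level (vertical axis) by vessel (horizontal axis) in 3 panels by polydextrose concentration. Grey lines are the 52 genes, red points their median with the quartiles as bars, and the horizontal lines are the medians of the butyrate (7.51) and medium (9.80) arrays. The median in vessels 2 to 4 was 9.01 to 9.16 at 0%, 8.42 to 8.50 at 1% and 7.70 to 8.06 at 2%.

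Whether fermented polydextrose changed the effect of the fluid was asked by comparing 2% with 0%, with vessel as a block. Of the 52 genes 50 passed the filter on low signal (log2 5 or more on at least 4 of the 12 fluid arrays), and 49 of these 50 fell (limma, adjusted p under 0.05 over all 8737 genes tested). Among all genes tested 20.8% passed in either direction and 11.2% passed as lower. The median log2 difference of the 50 genes was -1.01, beside -0.011 over all genes tested. With arrays under log2 5 set to that limit the median of the 50 was -0.98. Among genes at log2 5 or more on all 15 arrays the lowest differences were those of BORA (-1.67), AURKA (-1.55), BIRC5 (-1.49) and KIF20A (-1.46), and the only gene of the 50 that did not pass was CDC25B (-0.38). Without vessel as a block 0 of the 50 passed with limma (0 of all genes, smallest adjusted p = 0.214), although 49 of the 50, and 1952 of all genes, had an unadjusted p under 0.05. Leaving out any single array left 49 or 50 of the 50 as passing, beside 656 to 3058 of all genes.

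Within each vessel the direction was shared. The level at 2% was below that at 0% in all 4 vessels for 49 of the 50 genes, a pattern held by 19.3% of all genes tested. In vessels 2 to 4 the 3 arrays of 2% lay below the 3 arrays of 0% for 50 of 50 genes, beside 27.7% of all genes. With vessel 1 included the 4 arrays of 2% lay below the 4 arrays of 0% for 9 of the 50 (2.6% of all genes), because vessel 1 at 2% often read as high as the other vessels at 0%. Some of the 9 were barely apart, with the highest 2% and lowest 0% array at 7.20 and 7.22 for AURKB and 9.24 and 9.26 for KIF11. For CENPE these were 4.95 and 4.99, both under log2 5. The median difference was -0.60 in vessel 1, -1.13 in vessel 2, -1.26 in vessel 3 and -0.94 in vessel 4, and the medians over all genes lay between -0.059 and 0.017.

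**Figure D3:**
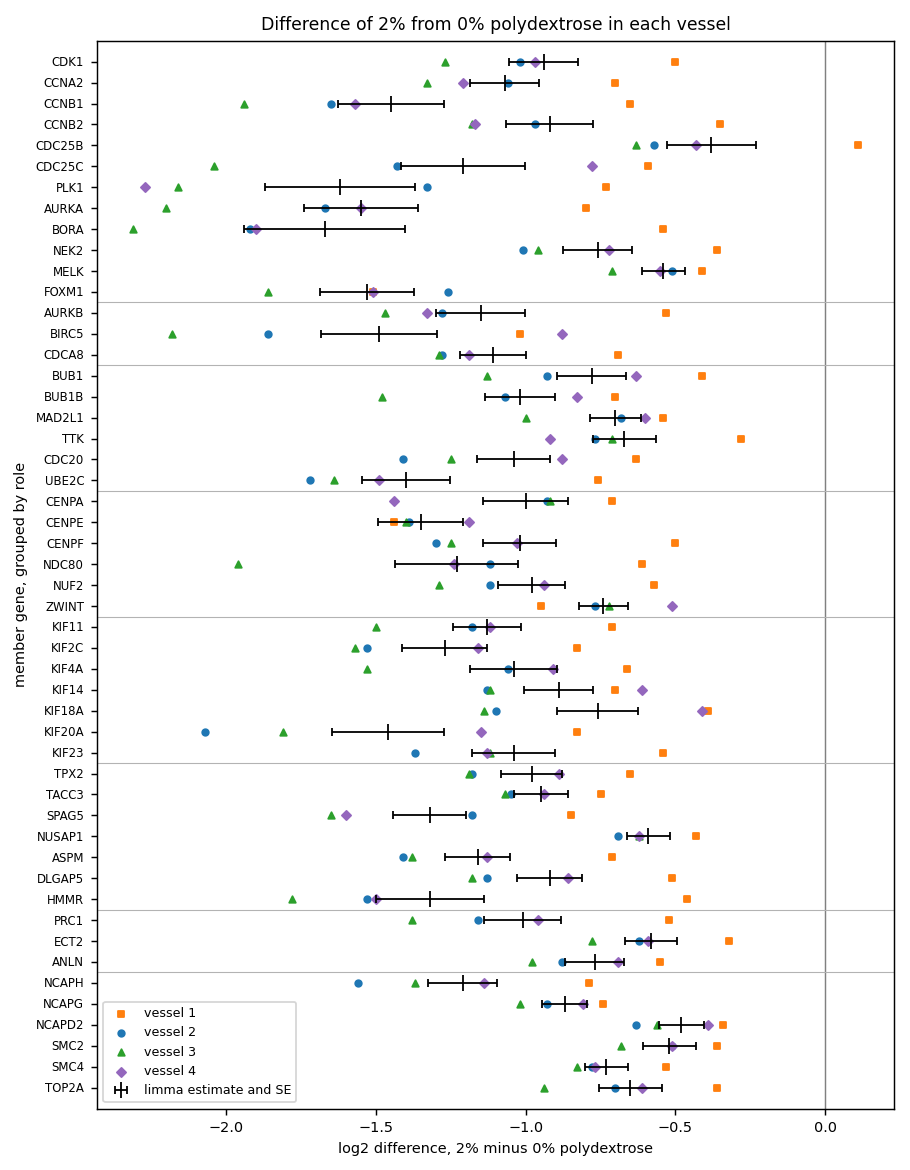
Log2 difference of 2% from 0% polydextrose (horizontal axis) for each of the 50 genes tested (vertical axis, grouped by role), with a coloured point for each vessel and the limma estimate with its standard error in black. In vessel 1 most differences are nearer to 0 (median -0.60) than in vessels 2 to 4 (medians -1.13, -1.26 and -0.94), and CDC25B in vessel 1 (0.11) is the only point above 0.

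Because these genes moved together, their promoters are shown for the letters of the CHR and of the CCAAT box, which NF-Y binds. RefSeq promoters (GRCh38.p14, from 250 bases before to 50 bases after a start site) were matched by symbol for 46 of the 52 genes, with 58 entries. FOXM1, UBE2C, BIRC5, AURKA, TPX2 and TTK had no entry in the table. HMMR, CCNB2, PLK1 and PRC1 are given as examples that hold both motifs close to the start site, and CDC25B as the gene that did not pass at 2%. Each line gives the 130 bases just before the start site, 5′ to 3′ on the gene's strand, with matches to TTTGAA or CCAAT on either strand in capitals.
HMMR: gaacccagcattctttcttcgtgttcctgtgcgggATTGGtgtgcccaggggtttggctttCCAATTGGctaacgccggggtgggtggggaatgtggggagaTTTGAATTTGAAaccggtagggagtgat
CCNB2: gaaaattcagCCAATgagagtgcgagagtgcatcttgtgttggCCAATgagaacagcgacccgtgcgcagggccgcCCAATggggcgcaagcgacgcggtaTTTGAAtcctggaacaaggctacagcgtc
PLK1: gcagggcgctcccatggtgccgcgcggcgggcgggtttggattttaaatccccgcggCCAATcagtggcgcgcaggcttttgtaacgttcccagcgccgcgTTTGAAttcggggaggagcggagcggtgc
PRC1: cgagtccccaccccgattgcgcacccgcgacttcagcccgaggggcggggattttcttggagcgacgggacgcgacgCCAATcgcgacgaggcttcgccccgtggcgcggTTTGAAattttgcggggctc
CDC25B: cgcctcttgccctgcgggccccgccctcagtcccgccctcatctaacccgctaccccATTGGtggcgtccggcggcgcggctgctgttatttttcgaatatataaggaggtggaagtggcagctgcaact
The stretches lie at chr5:163460502-163460631 (plus strand) for HMMR, chr15:59105016-59105145 (plus strand) for CCNB2, chr16:23678759-23678888 (plus strand) for PLK1, chr15:90994536-90994665 (minus strand) for PRC1 and chr20:3796180-3796309 (plus strand) for CDC25B. In HMMR the hexamer stands in tandem, with first bases at -28 and -22 from the start site, and in CCNB2 and PLK1 a match begins at -29. CDC25B held no TTTGAA in any of its entries. Its stretch comes from a later entry, while the other genes are shown by their first. That stretch holds a CCAAT match on the reverse strand at -73, and another CDC25B entry holds one at -169.

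TTTGAA on either strand was found in 38 of the 58 entries (65.5%), beside 15.2% of all 35116 promoters in the table and 10.8% of those of the genes tested. CCAAT was found in 65.5% of the entries, beside 34.6% of all promoters, and both motifs in 48.3%, beside 5.9%. The 2 motifs overlapped at 1 place in these entries. Of 48 TTTGAA matches 30 began between -60 and 30, around the start site. Some sites were counted in more than 1 entry of a gene, as for ZWINT, and positions were not counted over all promoters. By gene 34 of 46 held TTTGAA, and the 12 without it were AURKB, BUB1, CCNA2, CCNB1, CDC25B, CENPE, KIF20A, KIF2C, MELK, NCAPH, NEK2 and TACC3. The median log2 difference of 2% from 0% was -1.0 for 24 genes with both motifs, -0.93 for 8 with TTTGAA only, -1.11 for 8 with CCAAT only and -1.11 for 4 with neither, and differences between these sets were not tested. These are matches of letters in a window and do not show binding. Only the spelling TTTGAA was searched for the CHR, so genes without it, CDC25B among them, are not shown to lack a CHR.

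**Figure D4:**
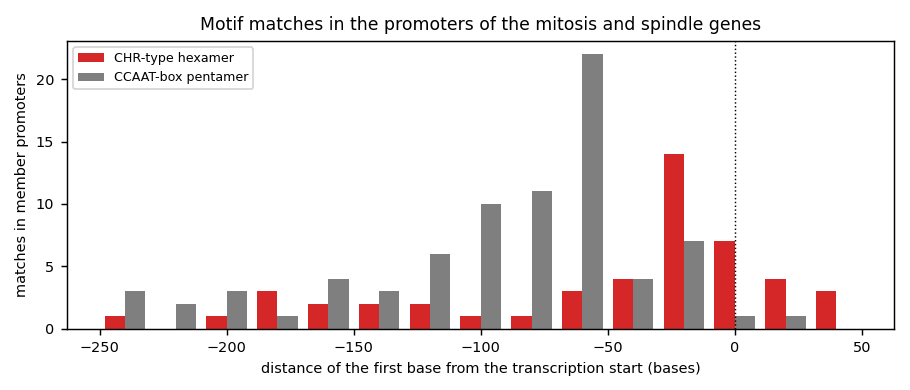
Number of motif matches in the 58 promoter entries of the 46 genes (vertical axis) by distance of the match's first base from the start site in bases (horizontal axis, dotted line at the start). Red bars are the CHR-type hexamer and grey bars the CCAAT-box pentamer. Of 48 hexamer matches 30 lie between -60 and 30, and most CCAAT matches lie before the start site.

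Of the 12 genes of mitotic entry 11 fell at 2% against 0% (median log2 difference -1.14). BORA, the cofactor through which AURKA activates PLK1, read 7.99, 7.08, 7.45 and 7.56 at 0%, 7.75, 6.27, 6.46 and 5.87 at 1% and 7.45, 5.15, 5.15 and 5.66 at 2% in vessels 1 to 4. The array of vessel 1 at 2% overlapped the 0% arrays, and the 3 others lay far below them. Its log2 difference of 2% from 0% was -1.67 (SE 0.269, adjusted p = 0.00496), a 3.18-fold lower level. BORA read 5.03 with butyrate and 7.03 with NaCl, against 8.51 in medium. AURKA, the kinase that matures centrosomes and spindle poles, read 9.93, 8.98, 9.09 and 9.08 at 0%, 9.74, 7.95, 8.08 and 8.02 at 1% and 9.14, 7.31, 6.89 and 7.54 at 2%, and it too overlapped only through vessel 1. The difference of AURKA at 2% was -1.55 (SE 0.190, adjusted p = 0.00197), and it read 7.16 with butyrate and 10.21 with NaCl, against 10.36 in medium. CDC25B, a phosphatase that starts CDK1 activation, went apart from the rest, with 9.32, 9.09, 9.34 and 8.98 at 0%, 10.0, 8.94, 8.94 and 9.01 at 1% and 9.43, 8.52, 8.71 and 8.55 at 2%. At 2% it was highest in vessel 1, above all 4 arrays of 0%, while vessels 2 to 4 lay below all of them. CDC25B differed by -0.38 (SE 0.149, adjusted p = 0.0992), and by -0.54 (adjusted p = 0.00374) with the arrays of vessel 1 left out. It read 7.91 with butyrate and 9.20 with NaCl, against 8.72 in medium.

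Other genes of this role reached low levels. PLK1, the kinase that drives centrosome maturation and mitotic exit, read 6.29, 5.20, 5.68 and 5.48 at 0%, 6.41, 4.17, 4.53 and 4.74 at 1% and 5.56, 3.87, 3.52 and 3.22 at 2%, so 3 arrays of 2% were under log2 5 and that of vessel 1 lay among the 0% arrays. With these arrays set to that limit the difference of PLK1 was -0.52 or below. PLK1 read 3.61 with butyrate and 7.02 with NaCl, against 7.36 in medium. FOXM1, the transcription factor of the G2 and mitosis genes, read 7.49, 5.88, 6.52 and 5.95 at 0%, 7.37, 5.22, 5.33 and 5.52 at 1% and 5.98, 4.62, 4.66 and 4.44 at 2%, and the same 3 vessels were under log2 5 at 2%, which bounds its difference at -1.21 or below. FOXM1 read 4.36 with butyrate and 8.01 with NaCl, against 7.95 in medium, so NaCl and medium were alike. The cyclins CCNB1 (-1.45), CCNA2 (-1.07) and CCNB2 (-0.92) fell, as did their partner kinase CDK1 (-0.94) and its activating phosphatase CDC25C (-1.21). NEK2, a kinase of centrosome separation, fell by 0.76 on the log2 scale and MELK, a kinase abundant in dividing cells, fell by 0.54.

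The chromosomal passenger complex corrects faulty attachments and prepares cytokinesis, and its 3 genes tested fell. BIRC5, which encodes survivin, read 9.21, 8.21, 8.29 and 7.97 at 0%, 8.48, 7.16, 7.03 and 7.18 at 1% and 8.20, 6.35, 6.11 and 7.09 at 2%. The vessel 1 array of 2% was level with the lower arrays of 0%. The difference of BIRC5 was -1.49 (SE 0.193, adjusted p = 0.00212), and it read 7.0 with butyrate and 9.15 with NaCl, against 9.68 in medium. AURKB, the kinase of the complex, read 7.72, 7.22, 7.35 and 7.32 at 0%, 7.78, 6.59, 7.08 and 6.93 at 1% and 7.20, 5.94, 5.88 and 5.99 at 2%, with all 4 arrays of 2% below all 4 of 0%, by a very narrow gap in vessel 1. AURKB differed by -1.15 (SE 0.148, adjusted p = 0.00208) and read 5.15 with butyrate and 7.18 with NaCl, against 8.40 in medium. CDCA8, which encodes borealin, read 7.97, 7.06, 7.29 and 7.15 at 0%, 7.74, 6.39, 6.48 and 6.71 at 1% and 7.28, 5.78, 6.0 and 5.96 at 2%, with overlap only through vessel 1. CDCA8 differed by -1.11 (SE 0.110, adjusted p = 0.00122) and read 5.55 with butyrate and 7.75 with NaCl, against 8.55 in medium.

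All 6 genes of the spindle checkpoint and of anaphase ubiquitination fell at 2% (median -0.90). UBE2C, the ubiquitin-conjugating enzyme of the anaphase-promoting complex, read 10.21, 9.41, 9.41 and 9.57 at 0%, 10.08, 8.50, 8.50 and 8.72 at 1% and 9.45, 7.69, 7.77 and 8.08 at 2%. It was high in vessel 1 at each concentration, and the 2% array of vessel 1 lay among the 0% arrays. UBE2C differed by -1.40 (SE 0.147, adjusted p = 0.00124) and read 7.48 with butyrate and 9.63 with NaCl, against 10.41 in medium. CDC20, the activator of the complex that the checkpoint restrains, read 10.67, 10.05, 10.17 and 9.87 at 0%, 10.55, 9.29, 9.53 and 9.37 at 1% and 10.04, 8.64, 8.92 and 8.98 at 2%. The overlap again came from vessel 1, and CDC20 differed by -1.04 (SE 0.121, adjusted p = 0.00174). CDC20 read 8.79 with butyrate and 10.73 with NaCl, against 10.74 in medium, so the NaCl array read like medium. TTK, the kinase MPS1 at the top of the checkpoint, changed least of the role and read 9.58, 9.23, 9.31 and 9.55 at 0%, 9.44, 8.81, 8.94 and 8.84 at 1% and 9.30, 8.46, 8.59 and 8.63 at 2%, with overlap through vessel 1. TTK differed by -0.67 (SE 0.104, adjusted p = 0.00423) and read 8.33 with butyrate and 9.25 with NaCl, against 9.99 in medium. The checkpoint genes BUB1B (-1.02), BUB1 (-0.78) and MAD2L1 (-0.70) fell too.

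At the centromere and kinetochore 6 of 6 genes tested fell (median -1.01). NDC80, a subunit of the complex that grips microtubules, read 8.79, 8.27, 8.25 and 8.59 at 0%, 8.64, 7.44, 7.51 and 7.48 at 1% and 8.18, 7.14, 6.29 and 7.35 at 2%. All 4 arrays of 2% were below the 0% arrays, by a narrow gap in vessel 1, and vessel 3 was lowest. NDC80 differed by -1.23 (SE 0.205, adjusted p = 0.00553) and read 7.0 with butyrate and 8.57 with NaCl, against 9.37 in medium. CENPF, a large protein of the outer kinetochore, read 10.07, 9.53, 9.65 and 9.61 at 0%, 10.09, 9.01, 9.18 and 9.18 at 1% and 9.57, 8.23, 8.39 and 8.59 at 2%, with vessel 1 at 2% inside the range of 0%. CENPF differed by -1.02 (SE 0.122, adjusted p = 0.00192) and read 7.83 with butyrate and 9.87 with NaCl, against 10.11 in medium. ZWINT, which links the checkpoint to the kinetochore, read 10.50, 9.72, 9.68 and 9.61 at 0%, 9.77, 9.30, 9.23 and 9.18 at 1% and 9.55, 8.95, 8.96 and 9.10 at 2%, without overlap of 2% and 0%. ZWINT differed by -0.74 (SE 0.082, adjusted p = 0.00163), and its single arrays stood further apart, at 9.35 with butyrate and 10.78 with NaCl, against 11.30 in medium. NUF2, the partner of NDC80, fell by 0.98 on the log2 scale and CENPA, the centromeric histone, fell by 1.0. CENPE, the kinetochore kinesin, had -1.35, but it passed the filter only through 3 arrays of 0% and vessel 1 of 1%. With its 4 arrays of 2% under log2 5 and set to that limit, the difference of CENPE was -0.41 or below.

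The 7 kinesin motors tested fell (median -1.04). KIF20A, the motor of the central spindle, read 8.62, 7.91, 7.89 and 7.63 at 0%, 8.24, 6.41, 6.84 and 6.74 at 1% and 7.80, 5.85, 6.08 and 6.49 at 2%. Vessel 2 at 2% had the lowest level, and vessel 1 at 2% lay among the 0% arrays. KIF20A differed by -1.46 (SE 0.187, adjusted p = 0.00208) and read 5.85 with butyrate and 9.56 with NaCl, against 8.84 in medium, the only member of the role that was higher with NaCl than in medium. KIF2C, which shortens microtubules at kinetochores, read 9.70, 8.97, 9.09 and 9.21 at 0%, 9.70, 8.01, 8.40 and 8.68 at 1% and 8.87, 7.44, 7.52 and 8.05 at 2%, and 2% and 0% did not overlap. KIF2C differed by -1.27 (SE 0.141, adjusted p = 0.00162) and read 6.87 with butyrate and 9.12 with NaCl, against 10.19 in medium. KIF18A, which dampens chromosome movements at the spindle's centre, read 7.93, 7.64, 7.52 and 7.49 at 0%, 7.65, 7.02, 6.84 and 7.0 at 1% and 7.55, 6.54, 6.38 and 7.08 at 2%. The arrays overlapped through vessel 1, in vessel 4 the 2% level stayed near that of 1%, and KIF18A differed by -0.76 (SE 0.135, adjusted p = 0.00704). It read 6.46 with butyrate and 7.03 with NaCl, against 8.44 in medium. KIF11, the motor that pushes the spindle poles apart, fell by 1.13, KIF4A and KIF23 each by 1.04 and KIF14 by 0.89. KIF15 was not tested and averaged 3.97 at 2% and 4.77 at 0%, both under log2 5.

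Among the spindle microtubule proteins 7 of 7 fell (median -0.98). HMMR, a protein of spindle poles and a hyaluronan receptor, read 10.11, 9.44, 9.59 and 9.58 at 0%, 9.76, 8.66, 8.71 and 8.56 at 1% and 9.65, 7.91, 7.80 and 8.07 at 2%. Its 2% array of vessel 1 was just above the 0% arrays of vessels 2 to 4, while the 3 others were clearly lower. HMMR differed by -1.32 (SE 0.181, adjusted p = 0.00249) and read 7.18 with butyrate and 9.17 with NaCl, against 10.62 in medium. SPAG5, or astrin, which holds the poles and kinetochores together, read 7.50, 6.54, 6.75 and 6.84 at 0%, 7.18, 6.07, 5.95 and 6.14 at 1% and 6.66, 5.36, 5.09 and 5.24 at 2%, with overlap through vessel 1 only. SPAG5 differed by -1.32 (SE 0.122, adjusted p = 0.00109). It read 5.44 with butyrate and 8.52 with NaCl, against 7.98 in medium, so the NaCl array lay above medium. NUSAP1, which bundles spindle microtubules near chromatin, changed least of the role, with 10.99, 10.61, 10.56 and 10.66 at 0%, 10.66, 10.26, 10.39 and 10.35 at 1% and 10.56, 9.92, 9.94 and 10.04 at 2%, where vessel 1 at 2% met the lowest 0% array. NUSAP1 differed by -0.59 (SE 0.073, adjusted p = 0.00201) and read 9.99 with butyrate and 10.46 with NaCl, against 10.78 in medium. The spindle assembly factor TPX2 fell by 0.98, TACC3 by 0.95, the pole protein ASPM by 1.16 and DLGAP5, or HURP, by 0.92.

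Genes of cytokinesis fell as well (3 of 3, median -0.77). PRC1, which bundles the antiparallel microtubules of the midzone, read 9.89, 9.24, 9.33 and 9.23 at 0%, 9.92, 8.67, 8.80 and 8.70 at 1% and 9.37, 8.09, 7.95 and 8.26 at 2%. Vessel 1 at 2% was inside the range of 0%, and PRC1 differed by -1.01 (SE 0.129, adjusted p = 0.00208). PRC1 read 8.05 with butyrate and 9.96 with NaCl, against 10.29 in medium. ANLN, the anillin of the contractile ring, read 10.73, 10.14, 10.16 and 10.09 at 0%, 10.07, 9.60, 9.56 and 9.31 at 1% and 10.18, 9.26, 9.18 and 9.40 at 2%, with 2% overlapping 0% through vessel 1. ANLN differed by -0.77 (SE 0.098, adjusted p = 0.00207) and read 8.88 with butyrate and 10.43 with NaCl, against 10.97 in medium. ECT2, the exchange factor that activates RhoA at the cleavage site, read 10.76, 10.40, 10.44 and 10.39 at 0%, 10.31, 10.01, 9.79 and 9.76 at 1% and 10.44, 9.77, 9.65 and 9.80 at 2%, and its 1% and 2% arrays covered nearly the same range. ECT2 differed by -0.58 (SE 0.087, adjusted p = 0.00346) and read 9.39 with butyrate and 11.34 with NaCl, against 11.21 in medium.

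The condensin and chromosome structure genes had the smallest median (-0.69), and 6 of 6 fell. NCAPG, a condensin I subunit, read 10.56, 9.86, 9.96 and 10.05 at 0%, 10.15, 9.30, 9.50 and 9.42 at 1% and 9.82, 8.94, 8.94 and 9.24 at 2%, without overlap of 2% and 0%. NCAPG differed by -0.87 (SE 0.076, adjusted p = 0.00107) and read 8.81 with butyrate and 9.84 with NaCl, against 10.89 in medium. SMC4, a core ATPase of condensin, read 11.15, 10.59, 10.75 and 10.78 at 0%, 10.93, 10.18, 10.35 and 10.26 at 1% and 10.62, 9.81, 9.92 and 10.0 at 2%, and vessel 1 at 2% lay just above the lowest 0% array. SMC4 differed by -0.73 (SE 0.072, adjusted p = 0.00122) and read 9.84 with butyrate and 11.12 with NaCl, against 11.35 in medium. NCAPD2, another condensin I subunit, had the smallest change of the role and read 9.18, 8.85, 8.90 and 8.67 at 0%, 9.10, 8.52, 8.53 and 8.57 at 1% and 8.85, 8.22, 8.34 and 8.28 at 2%, again with overlap through vessel 1. NCAPD2 differed by -0.48 (SE 0.074, adjusted p = 0.00407) and read 8.41 with butyrate and 8.59 with NaCl, against 9.17 in medium. SMC2 fell by 0.52 and TOP2A, the topoisomerase that untangles chromosomes, fell by 0.65. NCAPH, the kleisin of condensin I, had 3 arrays of 2% under log2 5, and with these set to that limit its difference was -0.48 or below.

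The 1% fluid stood between the others. Against 0%, 25 of the 50 genes fell (limma, adjusted p under 0.05), where 4.78% of all genes tested passed in either direction and 2.15% as lower. The median log2 difference was -0.52, beside 0.008 over all genes, and 49 of 50 estimates lay below 0. Among those that passed were BIRC5 (-0.96), KIF20A (-0.96), CCNB1 (-0.91), KIF23 (-0.87) and AURKA (-0.83), and CDC25B had 0.04. This count rested on single arrays: it was 0 without vessel 2 of 0%, or without vessel 3 or 4 of 1%, 1 without vessel 3 of 0% and 2 without vessel 4 of 0%. Of all genes 9, 22, 0, 21 and 45 passed in these fits in the same order, so the loss was not limited to the 50. The count was 4 without vessel 1 of 1%, 9 without vessel 2 of 1% and 13 without vessel 2 or vessel 4 of 2%. Over all genes 43, 137, 146 and 143 passed in the same order. It was 46 without vessel 1 of 0%, 32 without vessel 1 of 2% and 26 without vessel 3 of 2%, beside 1185, 619 and 434 of all genes. Without vessel as a block the count was 0 (smallest adjusted p over all genes 0.367). There 7 of the 50, and 1125 of all genes, had an unadjusted p under 0.05. In the main fit unadjusted p-values were under 0.05 for 46 of the 50 genes, beside 2176 of all genes. As single arrays were left out this held for 41 to 48 of the 50, beside 1571 to 2784 of all genes.

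Against 1%, 0 of the 50 genes passed at 2% with limma (0 of all 8737 genes tested, 0%, smallest adjusted p = 0.0739), with an unadjusted p under 0.05 for 44 of the 50 and for 1608 of all genes. The median log2 difference was -0.50, and all 50 estimates were below 0. Without the arrays of vessel 1, 17 of the 50 passed, beside 141 of all genes. Without vessel 1 of 0% alone 31 passed, beside 579 of all genes. Levels fell in the order 0%, 1% and 2% in all 4 vessels for 37 of the 50 genes, a pattern of 2.38% of all genes tested. By vessel the order held for 39 genes in vessel 1, 50 in vessel 2, 50 in vessel 3 and 44 in vessel 4, beside 13.2%, 29.2%, 30.3% and 22.4% of all genes.

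Cells given fluid of vessel 1 had higher levels than those given fluid of vessels 2 to 4. With concentration as a term, 50 of 50 genes were higher in vessel 1 (limma, adjusted p under 0.05), where 34.7% of all genes tested passed in either direction and 19.3% as higher. The median log2 difference was 0.95, beside 0.024 over all genes. With arrays under log2 5 set to that limit it was 0.90. Among genes at log2 5 or more on all 15 arrays AURKA (1.5), BORA (1.43), BIRC5 (1.37) and KIF20A (1.35) had the largest differences, and MELK (0.34), NUSAP1 (0.43) and SMC2 (0.44) the smallest. With arrays set to the limit FOXM1 had 1.46, PLK1 0.93 and CENPE 0.78, with 3, 6 and 7 of the 9 arrays of vessels 2 to 4 under it. Without concentration as a term 0 of 50 passed (smallest adjusted p over all genes 0.0637). There 49 of the 50, and 3157 of all genes, had an unadjusted p under 0.05. At single concentrations vessel 1 was above each of the 3 other vessels for 50 genes at 2%, 50 at 1% and 49 at 0%, beside 42.6%, 44.8% and 34.7% of all genes. The ACTB difference, given above, was also highest in vessel 1 at each concentration.

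The estimated step per 1% of polydextrose was larger in vessels 2 to 4 than in vessel 1 for most genes, and 1 gene passed the test of that difference. HMMR changed by a further -0.57 per 1% in vessels 2 to 4 (SE 0.091, adjusted p = 0.0369, limma with 5 residual degrees of freedom), where 1.17% of all genes passed in either direction and 0.824% as lower. The median of the 50 extra slopes was -0.27, beside -0.015 over all genes, and 48 lay below 0. An unadjusted p under 0.05 was found for 26 of the 50, beside 1739 of all genes. Without vessel 1 of 0% the median was -0.16, and 3 of the 50 had an unadjusted p under 0.05, beside 1138 of all genes. BORA (-0.75, adjusted p = 0.0964) and CCNB1 (-0.54, adjusted p = 0.052) did not pass. Above 0 were ZWINT, with 0.14, and CENPE, which lay under log2 5 on 9 of all 15 arrays. The HMMR call did not hold up evenly: 0 of the 50 genes passed when vessel 1, 2, 3 or 4 of 0%, vessel 2 of 1%, or vessel 2, 3 or 4 of 2% was left out. In these fits 0 to 50 of all genes passed. Without vessel 1 of 2% the number among the 50 was 2, beside 315 of all genes, and without vessel 1 of 1% it was 4, beside 375.

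Butyrate at 5 mM was given on its own beside the fluids. There was 1 array with butyrate and 1 in medium, so differences are described without a test, for genes at log2 6 or more on the brighter side and counted from a log2 difference of 1. Of 50 genes compared 47 were lower by 1 or more with butyrate and 0 higher, where 31.2% of all genes compared passed this size, 15.6% as lower and 15.6% as higher. The median difference was -2.25, or -2.13 with genes under log2 5 on the butyrate array set to that limit. The 3 short of it were CDC25B (-0.81), NUSAP1 (-0.79) and NCAPD2 (-0.76). Among genes measured on both sides BORA (-3.48), HMMR (-3.44), KIF23 (-3.41), KIF2C (-3.32) and CCNA2 (-3.30) had the lowest values. Against the limit of log2 5, FOXM1 was at least 7.74-fold, PLK1 at least 5.12-fold, CDC25C at least 5.08-fold, CENPE at least 4.09-fold and NCAPH at least 2.92-fold lower with butyrate. With NaCl in place of medium as the control, 38 genes were lower by 1 or more, and the share over all genes was not counted.

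Under butyrate the roles came in the same order by median as at 2%, but for cytokinesis and the checkpoint, which changed places. Median differences were -2.84 for the passenger complex, -2.64 for entry genes, -2.40 for kinesins, -2.33 for kinetochore genes, -2.26 for spindle proteins, -2.10 for cytokinesis, -2.06 for the checkpoint and -1.46 for condensin and chromosome structure, over all 52 genes. The butyrate array lay below the 2% array for 50 of 50 genes in vessel 1, 38 in vessel 2, 31 in vessel 3 and 45 in vessel 4, where it did so for 50.7%, 50.1%, 45.4% and 49.8% of all genes tested. For 22 genes at least 1 array of 2% read below butyrate, with the widest gaps for BIRC5, NDC80 and KIF4A. Some gaps were very small, as for KIF20A (0.01) and DLGAP5 (0.03), and the share over all genes was not counted. BIRC5 read 6.11 in vessel 3 of 2%, against 7.0 with butyrate, and NDC80 read 6.29 there, against 7.0 with butyrate.

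Across the 52 genes the differences of 2% from 0% and of butyrate from medium ran in parallel, with Pearson's r of 0.84 and Spearman's rho of 0.84. These pairs of arrays share no array, but genes are not independent of each other. For the 44 genes at log2 5 or more on all arrays r was 0.81, and over all 7535 such genes it was 0.79, which is close to the value of these genes. Brighter genes among the 44 tended to change less. Against the mean level over 15 arrays, r was 0.47 for 2% from 0% and 0.53 for butyrate from medium. That mean includes the arrays compared, and the part of level in the parallel was not tested. The same differences of 2% from 0% set against those of NaCl from medium had r of 0.07 and rho of 0.07 (n = 52), beside 0.23 and 0.21 over all genes.

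**Figure D5:**
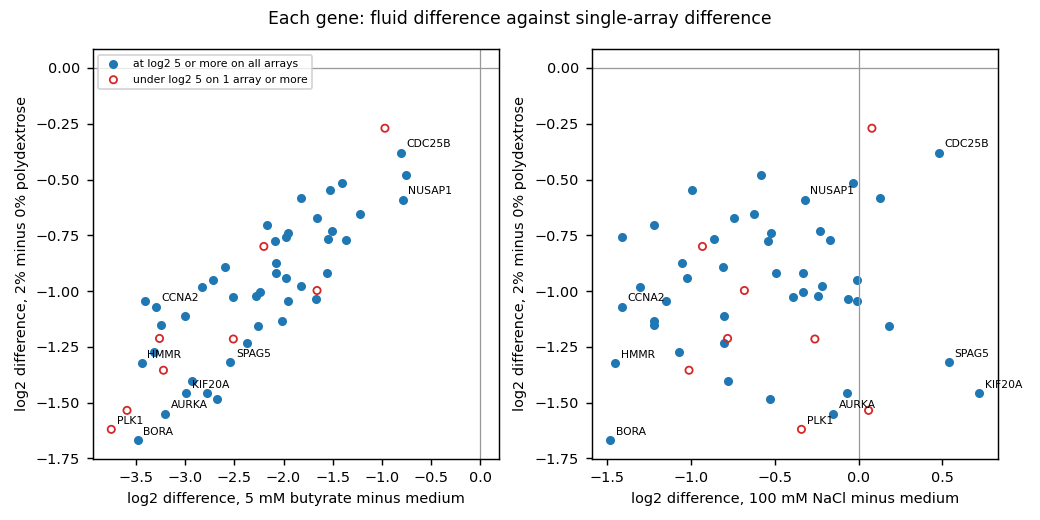
Log2 difference of 2% from 0% polydextrose (vertical axes, mean of 4 vessels) for each of the 52 genes against the log2 difference of butyrate from medium (left) and of NaCl from medium (right). Filled points reached log2 5 on all arrays, open points did not. The left points follow a rising line (r 0.84), while the right ones do not (r 0.07), with KIF20A, SPAG5 and CDC25B to the right of 0.

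With NaCl at 100 mM, given as a salt control, the differences were uneven. On its single array 13 of 50 genes were lower than in medium by a log2 difference of 1 or more and 0 higher, where 16.6% of all genes compared passed this size, 7.67% as lower and 8.93% as higher. The median difference was -0.53. Lowest were BORA (-1.48), HMMR (-1.45), KIF18A (-1.42), CCNA2 (-1.41) and NUF2 (-1.29). KIF20A (0.72), SPAG5 (0.53) and CDC25B (0.49) were higher with NaCl, and ASPM (0.19), ECT2 (0.13) and FOXM1 (0.06) slightly so. For cyclins the values went apart, with -1.41 for CCNA2, -0.33 for CCNB2 and -0.08 for CCNB1.

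Fluid fermented without polydextrose was compared with medium in the same way, as the mean of its 4 arrays against 1 array. Of 50 genes 13 were lower by 1 or more and 0 higher, where 12.6% of all genes compared passed this size, 4.8% as lower and 7.81% as higher, and the median difference was -0.78. PLK1 (-1.69), CENPE (-1.62), CCNA2 (-1.49), FOXM1 (-1.49) and ZWINT (-1.42) had the lowest values, and CDC25B was higher by 0.47. The count was 21 without vessel 1 of 0%, 8 without vessel 2 of 0% and 5 with NaCl in place of medium. For these alternatives the shares over all genes were not counted. In vessel 1 the 0% array lay below medium for 42 of 50 genes, and in each of the 3 other vessels for 49, beside 47.8% of all genes tested in vessel 1 and 47.3%, 46.6% and 48.2% in vessels 2 to 4.

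Of 115 further genes of mitosis listed from general knowledge, 110 were on the array and 97 were tested. At 2% against 0% 50 of them fell and 1 rose, with a median log2 difference of -0.31, where 11.2% of all genes tested passed as lower and 9.65% as higher. The 4 kinesins fell, with KIF22 at -1.08 and KIFC1 at -1.0, and 14 of 21 centromere and kinetochore genes, led by the CENPA chaperone HJURP (-1.54). Of 16 spindle and centrosome genes 10 fell, among them PLK4, the kinase of centriole duplication (-1.07). Of 14 genes of the anaphase-promoting complex 2 fell (median -0.08), a share near that over all genes. The gene that rose was LIN37, a subunit of MuvB, with 0.71 (SE 0.107, adjusted p = 0.0035), and 3 of the 7 DREAM and MuvB genes fell. At 1% 13 of the 97 fell and LIN37 rose (0.59), beside 2.15% of all genes as lower and 2.63% as higher. With butyrate 54 were lower by 1 or more and 2 higher, beside 15.6% of all genes compared in each direction.

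Other probe sets of the same genes were read as a check. Of the 52 genes 24 had more than 1, with 40 further probe sets, and the 21 of these with a mean of log2 5 or more were lower at 2% than at 0% and lower with butyrate than in medium. CCNA2 and CCNB1 had larger differences there, at -1.64 and -1.68 for 2% against 0%. Of the 19 dimmer probe sets 18 were lower at 2%, but their means lay under log2 5. All these probe sets were read on the same arrays, and the share over the probe sets of all genes was not counted.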

How the data were processed

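Total RNA of 15 treatments was read on 1 Affymetrix array each, and the deposited table of 54675 probe sets was used with all its columns. The authors made these values with GCRMA, per the submitters' processing notes, which corrects background, normalizes and summarizes probes. That the deposited values are log2 was inferred from their range (0.173 to 14.46). Chip description and software versions are not given in the sources used here. Probe sets were named by the platform's annotation: 41097 had 1 gene symbol, 1801 several and 11777 none, and 0 symbols changed on update by gene identifier.

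Genes were read from the probe set with the highest mean, which was a choice for 10523 genes. Genes at log2 5 or more on at least 4 of 12 fluid arrays entered the model (limma, version 3.58.1, under R 4.3.3), with concentration and vessel as factors (6 residual degrees of freedom, 5 for the difference of slopes, moderated 9.2, median residual SD 0.147). P-values were two-sided, adjusted by Benjamini-Hochberg over 8737 genes at 0.05. Data for 8737 genes were simulated from the vessel means and residual spread of the 12 fluid arrays, with noise independent between genes and arrays. Changes were added at 2%, in fewer genes than were called in the data. In 2% against 0%, 54% of changes of 0.5 and 95% of changes of 1 were recovered, with 12 false calls. Groups and vessel numbers come from the sample titles. Arrays of the same vessel deviated together in 10 of 12 pairs (correlation over 0.1, median 0.376, range 0.024 to 0.781), and the vessel is part of the design, so it was kept as a block.

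The 52 genes, the 8 roles, the further mitosis genes and the contrasts were chosen with earlier results of these data known. Values on every array are given for 24 genes: in each role, among genes at log2 5 or more on all 15 arrays, those with the 2 largest and the smallest differences of 2% from 0%. PLK1 and FOXM1 were added after their values were seen. No gene was tested for single arrays, since none was repeated. The markers HNF4A and CD68 and 1 other listed marker were not analysed here. Alternatives were other filters, the mean of probe sets, centring, an intensity trend with a robust prior, no vessel block, no concentration term, NaCl as the control, and leaving out arrays. Setting arrays under log2 5 to that limit was chosen after seeing the data.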

Additional observations from a re-analysis of the deposited data

Results flagged for a closer look

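In groups of 4 arrays, the vessels of a concentration, 75 groups of values were looked at for an array whose gap to its nearest neighbour took most of the group's range, and 20 stood out. Chance would give about 1 in 20 such groups among repeats of 1 condition. The 4 vessels are not repeats, and vessel 1 was already known to stand apart, so that rate does not apply here. In all 20 the array was that of vessel 1, and it was the highest. At 1% these were the median of the 52 genes at 9.48 (others 8.42 to 8.50), AURKA at 9.74, CDC25B at 10.0, BIRC5 at 8.48, UBE2C at 10.08, NDC80 at 8.64, CENPF at 10.09, HMMR at 9.76, SPAG5 at 7.18, PRC1 at 9.92 and NCAPD2 at 9.10. NDC80 had the widest gap of them, 0.94 of its range, with the other vessels at 7.44 to 7.51. At 0% they were AURKA at 9.93, ZWINT at 10.5, PRC1 at 9.89, ANLN at 10.73 and ECT2 at 10.76, and at 2% AURKB at 7.2, CDCA8 at 7.28, HMMR at 9.65 and SPAG5 at 6.66. The genes share their arrays, so the 20 are not independent.

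The difference between vessels in the step per 1% of polydextrose was tested, and HMMR passed, with -0.57 more per 1% in vessels 2 to 4 than in vessel 1. In vessel 1 HMMR read 10.11, 9.76 and 9.65 at 0%, 1% and 2%, and in vessel 3 it read 9.59, 8.71 and 7.80.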

How the results depend on the processing

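For 2% against 0% polydextrose the filters, the mean of probe sets, centring and the robust prior were followed in the 24 genes chosen by rule. Direction and passing were kept, apart from AURKB, which did not pass the filter with the mean of probe sets. CDC25B did not pass under these settings, but passed without vessel 1 (-0.54) and without vessel 1 of 0% (-0.57, limma adjusted p = 0.00232). PLK1 and FOXM1 were not among the 24, and too few of their fluid arrays reached log2 6 for the stricter filter. Of the 50 genes tested in the main fit, 49 to 50 passed as single arrays were left out. Without the replicate block, that is without vessel, 0 genes passed for 2% against 0% (smallest adjusted p = 0.214) and 0 for 1% against 0% (smallest adjusted p = 0.367). Without the arrays of vessel 1 the numbers were 43 for 1% against 0% (1136 of all genes) and 17 for 2% against 1% (141 of all genes). Without a concentration term the number was 0 for vessel 1 against the others. Leaving out single arrays gave 0 to 46 for 1% against 0%, 0 to 31 for 2% against 1% and 0 to 4 for the difference of slopes. Over all genes these were 0 to 1185, 0 to 579 and 0 to 375. For 0% fluid against medium the number was 8 to 21, and the share over all genes was not counted. The difference of slopes passed for 2 genes with the stricter filter, 2 with centring and 5 with the robust prior. Over all genes tested it passed for 154, 163 and 345 in the same order. With NaCl as the control 5 genes were lower with 0% fluid. The causes were not tested. Levels under log2 5 on at least 1 array limit PLK1, FOXM1, CENPE, NCAPH, CENPA, KIF15, CDC25C and INCENP, which lay under it on all arrays.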

Other observations

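Outside the 52 genes, the share that fell at 2% against 0% was counted by promoter motif among the genes tested with a RefSeq promoter. It was 16.2% of 560 genes with both TTTGAA and CCAAT, 15.7% of 451 with TTTGAA only, 8.85% of 2677 with CCAAT only and 10.7% of 3608 with neither. The shares that rose were 8.57%, 5.54%, 10.0% and 9.62% in the same order. The median differences of these groups lay between -0.047 and -0.002. No test was made of these shares.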
